A study of Mus musculus with 9 samples.

Results

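The clustered protocadherins are cell-surface adhesion proteins of the cadherin superfamily whose genes lie in tandem arrays called alpha, beta and gamma. Genes of the family were taken from the deposited expression tables by symbol (Pcdha, Pcdhb, Pcdhga, Pcdhgb or Pcdhgc followed by a number), which gave 57 of 24318 genes. They comprised 13 alpha, 22 beta and 22 gamma genes, the last made up of 12 Pcdhga, 7 Pcdhgb and 3 Pcdhgc genes. The alternate alpha isoforms Pcdhac1 and Pcdhac2 fall outside this rule and are described separately. The samples were N2A cells, a mouse neuroblastoma line with neuronal properties, transfected with individual siRNAs with a lipid reagent (Lipofectamine). The 3 groups each held 3 libraries from separate plates: a scramble siRNA in cells labelled wild type (siScramble), an siRNA against EXOSC3 in cells labelled EXOSC3 knockdown (siEXOSC3), and an siRNA against DDX1 in cells labelled DDX1 knockdown (siDDX1). All 9 libraries are labelled untreated otherwise and come from the same single line, and the labels do not say which EXOSC3 siRNA was used. EXOSC3 is a cap subunit of the RNA exosome, the complex that processes and degrades RNA from its 3′ end, and DDX1 is a putative RNA helicase of the DEAD-box family.

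Each alpha and gamma isoform is read from its own promoter and a large variable first exon, which is then spliced to constant exons common to the whole array. Beta genes have no constant exons and are usually read from a single exon. A neuron normally switches on a small, partly random set of variable promoters together with the C-type isoforms, and the resulting mixture of proteins on its surface takes part in homophilic recognition and in self-avoidance of its own branches. Promoter choice is known to depend on binding of CTCF and cohesin at the promoters and a distal enhancer, while DNA methylation by Dnmt3b and the chromatin protein Smchd1 keep unused promoters silent. Antisense RNAs are known to be transcribed across alpha variable exons. The libraries here were made without strand information, so sense and antisense reads over these exons cannot be told apart.

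In the GENCODE vM1 annotation of NCBIM37, the sequence of mm9, all 3 arrays lie on the plus strand of chromosome 18. Most alpha isoforms are joined in a gene model named Pcdha11, from 37089939 to 37347311, beside a separate model for Pcdha3 from 37105801 to 37108685. The 22 beta genes follow from 37424652 to 37681073, with spans of 2457 to 7131 bases. The gamma isoforms are joined under the name Pcdhgc5 from 37833989 to 38001527. Pcdhb20 is annotated there as a pseudogene, and RefSeq lists Pcdhgb8 as a transcribed pseudogene. The symbol Pcdha7-g matches a RefSeq gene in which the alpha7 variable exon is joined to the gamma constant end.

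How far the genes can be told apart by reads differed between the arrays. Of 10 spliced alpha transcripts in the annotation, each had a first exon of its own, of 1491 to 2562 bases. Directly after it, 9 went on to the same exons, and exons further on were not compared. Later exons made up between 1.19 and 54.4% of an alpha transcript's length. The 10 spliced gamma transcripts also had 10 different first exons, of 2565 to 5426 bases, and their later exons made up 6.08 to 45.2% of the length. The values of alpha isoforms, and those of gamma isoforms, are therefore partly tied to each other, and how the reads of common exons were divided among isoforms is not given in the sources used here. The beta genes, in contrast, were nearly free of long repeats of each other. Of all windows of 150 bases, the stated read length, 20 of the 22 beta genes held none that occurred in another beta gene. The exceptions were Pcdhb6 and Pcdhb10, with 0.184 and 0.223% of their windows in common.

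Values are FPKM, fragments per kilobase of transcript scaled to the mapped fragments of the library, so levels can be compared between genes. Each knockdown was compared with the siScramble values of its own table, since the tables were scaled separately. The targets were depleted in their own knockdowns, Exosc3 from 44.1 ± 1.56 to 6.84 ± 0.836 FPKM and Ddx1 from 125 ± 5.40 to 30.5 ± 3.73 FPKM (SD, n = 3). Sequencing depth, estimated from the steps between low values, ran from 0.827 to 1.20 times that of siScramble replicate 1, with 16.0 to 22.3% of low genes at the common step. Of 14 N2A and neuronal markers, 10 passed a mean FPKM of 1. Of 14 markers of other cell types, Mbp and Pecam1 passed it, and Aqp4, Col1a2, Krt5 and Krt14 were listed at 0 in all 9 libraries.

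Most clustered protocadherins were low in N2A cells. Mean siScramble levels in the siEXOSC3 table ran from 0.0219 FPKM for Pcdhb1 to 10.2 FPKM for Pcdhgc3, with a median of 0.416 FPKM. Pcdhgc3, a C-type gamma isoform, stood alone at the top with 9.97, 9.90 and 10.8 FPKM. It made up 43.2 ± 0.286% of the summed gamma FPKM (SD, n = 3). Pcdhgb1, a variable gamma isoform, came next with 3.06, 3.90 and 3.18 FPKM, and the alpha isoform Pcdha9 followed with 2.30, 2.66 and 2.09 FPKM. These 3 genes did not overlap one another. Pcdhgb2 (1.56 ± 0.00700 FPKM) and Pcdha8 (1.53 ± 0.113 FPKM) then overlapped. The best represented beta genes were level with one another, since Pcdhb20, Pcdhb22, Pcdhb21 and Pcdhb18 all had means between 1.08 and 1.24 FPKM and overlapping libraries. In bulk RNA, a low value may stand for few cells with the transcript or for little in each, and these cannot be told apart.

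Depletion of EXOSC3 was followed by higher levels of 2 alpha, 1 beta and 1 gamma isoform, while none of the tested family members fell past the threshold. The test was limma on log2(FPKM + 1) over all genes with a mean of at least 1 FPKM, adjusted by Benjamini-Hochberg, and fold changes on that scale understate those of low genes. Of the 57 genes, 13 passed this filter and 44 did not. Of the 13 tested, 4 increased in siEXOSC3, in a comparison in which 16.7% of all 11242 tested genes increased. None decreased by limma, where 15.7% of all tested genes did, and at an unadjusted p under 0.05 there were 6 higher and 1 lower of 13, where 22% and 23.4% of all tested genes were. Among the tested members the median log2 change was 0.07, beside -0.01 over all tested genes. Pcdhb11 passed the filter through its siEXOSC3 level, since its siScramble mean was 0.731 FPKM, so the count of tested members is not independent of the change.

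Pcdha9, an isoform of the alpha array, was measured at 2.30, 2.66 and 2.09 FPKM in siScramble and at 4.16, 3.41 and 4.44 FPKM in siEXOSC3. All 3 knockdown libraries lay above the controls. The mean rose from 2.35 ± 0.292 to 4.01 ± 0.532 FPKM, a ratio of 1.70, and the log2 change was 0.58 ± 0.115 (SE, limma adjusted p = 0.00844). Pcdha8, its neighbour on the chromosome, stood at 1.40, 1.59 and 1.61 FPKM in siScramble and at 2.40, 2.02 and 2.66 FPKM in siEXOSC3. Its groups did not overlap either, and its log2 change was 0.40 ± 0.111 (SE, limma adjusted p = 0.0261). With 1 library left out, the call for Pcdha8 was lost in 5 of 6 fits, with limma adjusted p from 0.0634 to 0.103, and held without siEXOSC3 replicate 2 (0.0108).

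Pcdhgb1, the highest variable isoform, rose from 3.06, 3.90 and 3.18 FPKM to 5.57, 4.64 and 7.35 FPKM. The log2 change was 0.63 ± 0.149 (SE, limma adjusted p = 0.0150) and the ratio of means 1.73. Replicate 3 of siEXOSC3 was the highest and replicate 2 the lowest, with all 3 above the controls. Without siScramble replicate 1 or 3 the limma adjusted p became 0.0639 and 0.0599. Pcdhb11, the 1 beta gene called, was at 0.605, 0.851 and 0.735 FPKM in siScramble and at 1.55, 1.14 and 2.01 FPKM in siEXOSC3. Its log2 change was 0.56 ± 0.149 (SE, limma adjusted p = 0.0234), with a ratio of 2.14. That call was lost without siScramble replicate 1 (limma adjusted p = 0.0901), without siScramble replicate 3 (0.0701) and without siEXOSC3 replicate 1 (0.0716), and without siEXOSC3 replicate 3 the gene fell under the filter. By an exact two-sided permutation test, each of these 4 genes had p = 0.1, the smallest value 3 libraries against 3 can give.

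**Figure D1:**
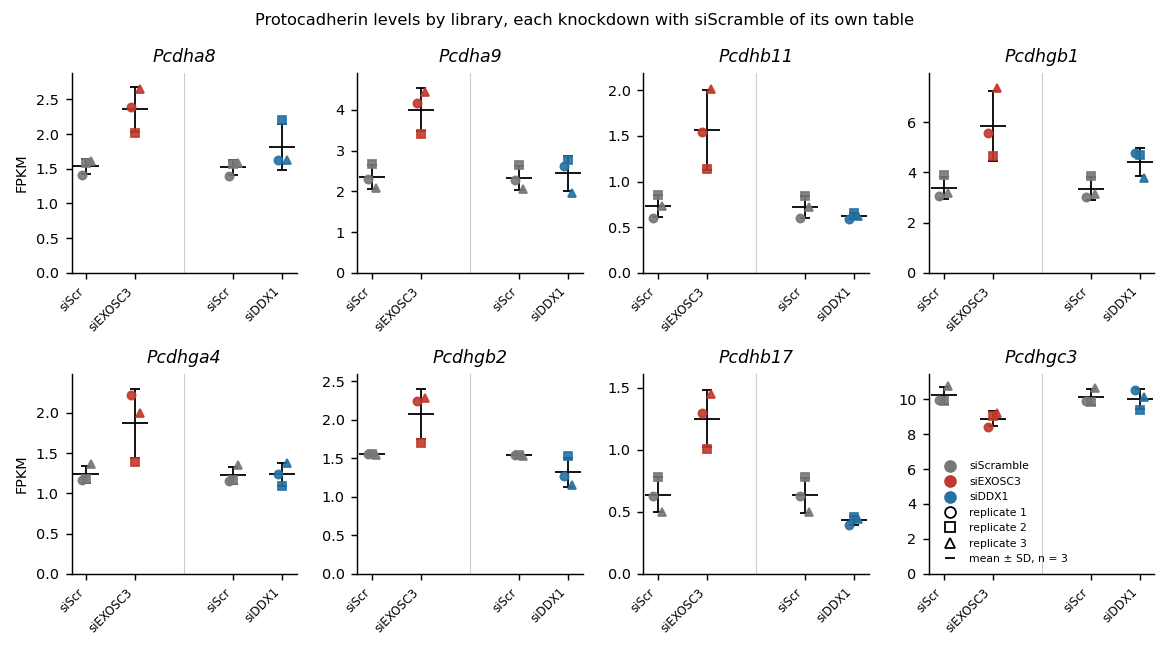
FPKM of 8 clustered protocadherins in every library, with siScramble in grey, siEXOSC3 in red and siDDX1 in blue, each knockdown beside the siScramble values of its own table; bars are the mean ± SD (n = 3) and symbols give the replicate. In Pcdha8, Pcdha9, Pcdhb11 and Pcdhgb1 the siEXOSC3 libraries lie above siScramble, while in Pcdhgc3 they lie below, at 8.40 to 9.21 against 9.90 to 10.8 FPKM.

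The other tested members did not pass the threshold in siEXOSC3. The gamma isoforms Pcdhga4 and Pcdhgb2 had higher values in every library. Pcdhga4 stood at 1.17, 1.18 and 1.36 FPKM in siScramble and at 2.22, 1.39 and 2.0 FPKM in siEXOSC3, with a log2 difference of 0.35 ± 0.135 (SE, limma adjusted p = 0.0772). Pcdhgb2 stood at 1.56, 1.56 and 1.55 FPKM against 2.24, 1.70 and 2.29 FPKM, with a log2 difference of 0.26 ± 0.113 (SE, limma adjusted p = 0.107). Both were past the threshold without siEXOSC3 replicate 2, at limma adjusted p = 0.0130 and 0.0304, in a fit in which 21.2% of all tested genes increased. The 4 best represented beta genes showed little difference, with log2 values of 0.07 for Pcdhb18, 0.04 for Pcdhb20, 0.02 for Pcdhb21 and -0.01 for Pcdhb22. The limma adjusted p values of those beta genes ran from 0.706 to 0.963, and their libraries overlapped. Pcdhga5 and Pcdhgb8 also overlapped, with log2 differences of -0.02 and -0.05.

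Pcdhgc3 took the opposite side. Its levels were 9.97, 9.90 and 10.8 FPKM in siScramble and 8.40, 9.04 and 9.21 FPKM in siEXOSC3, so that all knockdown libraries lay below the controls. The log2 difference of -0.18 ± 0.0744 (SE) did not pass the threshold (limma adjusted p = 0.0913). Within the gamma array the share of Pcdhgc3 was 43.5, 42.9 and 43.3% of summed FPKM in siScramble and 30.3, 37.6 and 31.5% in siEXOSC3. The share of Pcdhgb1 was 13.3, 16.9 and 12.8% in siScramble and 20.1, 19.3 and 25.1% in siEXOSC3. For each FPKM of Pcdhgc3 there were 0.307, 0.394 and 0.295 FPKM of Pcdhgb1 in siScramble and 0.662, 0.513 and 0.798 in siEXOSC3. The same ratio was 0.454, 0.50 and 0.374 in siDDX1, where replicate 3 overlapped the controls. The Pcdhgc3 share there was 42.5, 37.7 and 41.7%, below every siScramble library. These shares describe the same libraries as the levels above and were not tested.

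The 44 members under the filter can be described by whether the libraries of the groups overlapped. With a mean of at least 0.1 FPKM, 54 of the 57 genes remained. In siEXOSC3, 15 of them (27.8%) had all 3 knockdown values above all 3 siScramble values, where 23.8% of all genes at this level did. A single one, Pcdhgc3 (1.85%), had all values below, where 22.5% of all genes did. The beta array held 8 of the 15, of 21 beta genes at this level, with 3 of 12 in the alpha array and 4 of 21 in the gamma array. The share above is near that of all genes, while few members lay below.

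The beta genes with separate groups lay in neighbouring stretches of the array, apart from Pcdhb4: one ran from Pcdhb9 through Pcdhb12 and the other from Pcdhb15 through Pcdhb17. These genes, like the other low ones named from here on, were picked after their values had been seen. Pcdhb10 was at 0.162, 0.235 and 0.196 FPKM in siScramble and at 0.501, 0.442 and 0.456 FPKM in siEXOSC3, a ratio of 2.36. Pcdhb15 was at 0.367, 0.458 and 0.531 FPKM against 0.755, 0.937 and 0.887 FPKM. Pcdhb17 was at 0.631, 0.784 and 0.501 FPKM against 1.30, 1.01 and 1.45 FPKM, a ratio of 1.96. Between both stretches, Pcdhb13 and Pcdhb14 overlapped their controls, with ratios of 0.770 and 1.04, and beyond the second stretch Pcdhb18 through Pcdhb22 overlapped too. In the alpha array, Pcdha7 was listed at 0 in siScramble replicate 1 and at 0.198 and 0.258 FPKM in the others, and reached 0.496, 0.607 and 0.699 FPKM in siEXOSC3. Pcdha7-g, the entry with the same variable exon, was at 0.203, 0.193 and 0 FPKM in siScramble and 0, 0 and 0.170 FPKM in siEXOSC3. Its ratio was 0.430, with overlap, and how reads of this exon were divided between both entries is not known. Pcdha7 lies directly before Pcdha8 and Pcdha9, whereas Pcdha1 through Pcdha6 and Pcdha10 through Pcdha12 all overlapped.

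Other filters let the low genes into the fit. With no filter on FPKM, all 57 entered and 10 increased by limma, where 10.8% of all genes did, and the 10 were the 4 above together with Pcdha7, Pcdhb9, Pcdhb10, Pcdhb15, Pcdhb16 and Pcdhb17. With a filter of 0.1 and a pseudocount of 0.1, chosen after the data had been seen, 54 entered and 8 increased, where 15.1% of all genes did. Pcdhb9 and Pcdhb16 were the ones no longer called. In that fit Pcdhb10 had a log2 change of 0.93 ± 0.254 (SE, limma adjusted p = 0.0287), Pcdhb15 of 0.80 ± 0.217 (0.0281) and Pcdhb17 of 0.88 ± 0.224 (0.0237).

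**Figure D2:**
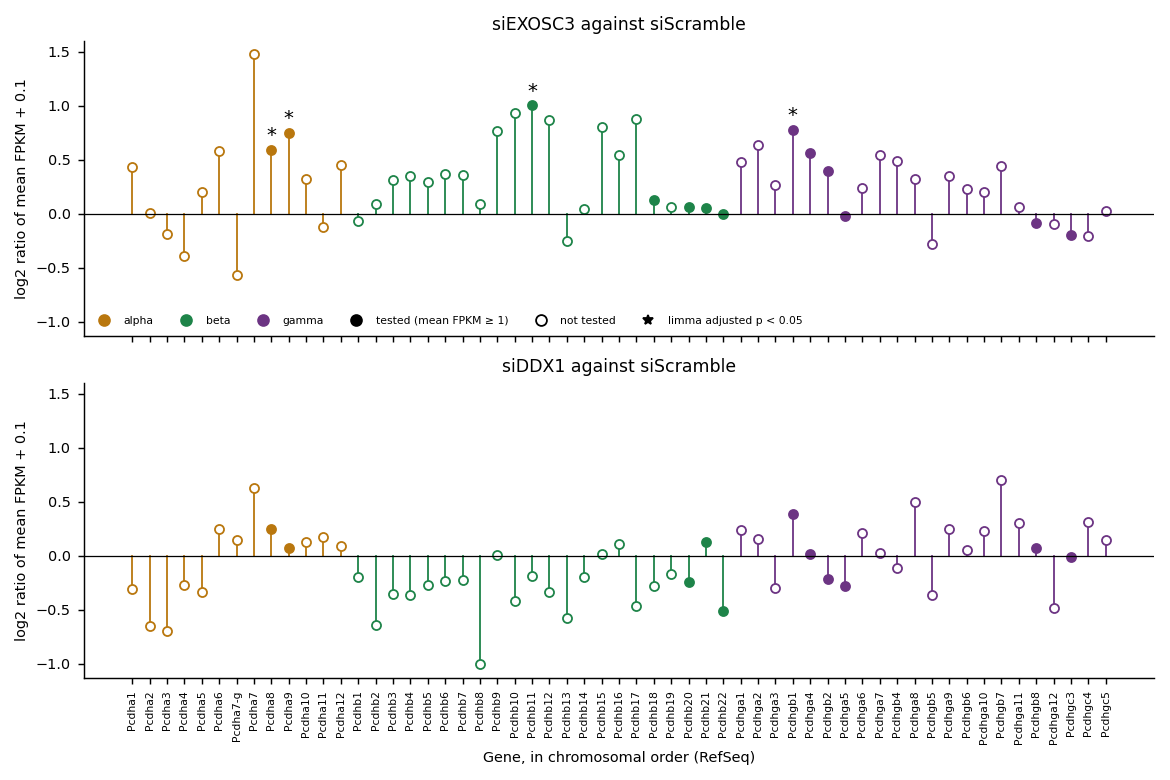
Log2 ratio of mean FPKM, with 0.1 added to both means, for the 57 clustered protocadherins in chromosomal order, siEXOSC3 above and siDDX1 below; filled circles passed the filter of a mean FPKM of 1, open circles did not, and a star marks a limma adjusted p under 0.05. In siEXOSC3, 19 of 22 beta genes have a ratio over 1, and in siDDX1 4 of 22 do.

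Counted by the ratio of means alone, 44 of the 57 members were higher in siEXOSC3. This held for 9 of 13 alpha, 19 of 22 beta and 16 of 22 gamma genes. The median ratio was 1.31, beside 1.01 over all genes with a mean of at least 0.1 FPKM. Many of these differences were within the spread of the libraries, and siEXOSC3 replicate 2 was the lowest of the 3 knockdown libraries in 40 of the 57 genes. The same library had the highest remaining Exosc3, at 7.68 FPKM against 6.84 and 6.01 FPKM, and the part of this in the result was not tested.

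Summed over each array, the alpha genes came to 8.15, 8.45 and 8.18 FPKM in siScramble and 12.0, 9.26 and 13.8 FPKM in siEXOSC3, a ratio of 1.42 with no overlap. The beta genes came to 10.6, 12.8 and 11.7 FPKM against 16.4, 12.7 and 17.4 FPKM, a ratio of 1.33, with siEXOSC3 replicate 2 among the controls. The gamma genes came to 22.9, 23.1 and 24.9 FPKM against 27.8, 24.1 and 29.2 FPKM, a ratio of 1.14, also with replicate 2 among the controls. The sums of 2 gamma subfamilies were carried largely by single members. The Pcdhgb sum went from 7.62 ± 0.459 to 10.9 ± 2.03 FPKM with all knockdown libraries higher, the Pcdhga sum from 5.29 ± 0.673 to 6.75 ± 0.866 FPKM with overlap, and the Pcdhgc sum from 10.7 ± 0.612 to 9.35 ± 0.341 FPKM with all knockdown libraries lower (SD, n = 3). Pcdhgb1 made up 2.47 of the 3.31 FPKM by which the Pcdhgb sum was higher, and the difference of Pcdhgc3 was -1.33 of the -1.37 FPKM of the Pcdhgc sum.

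**Figure D3:**
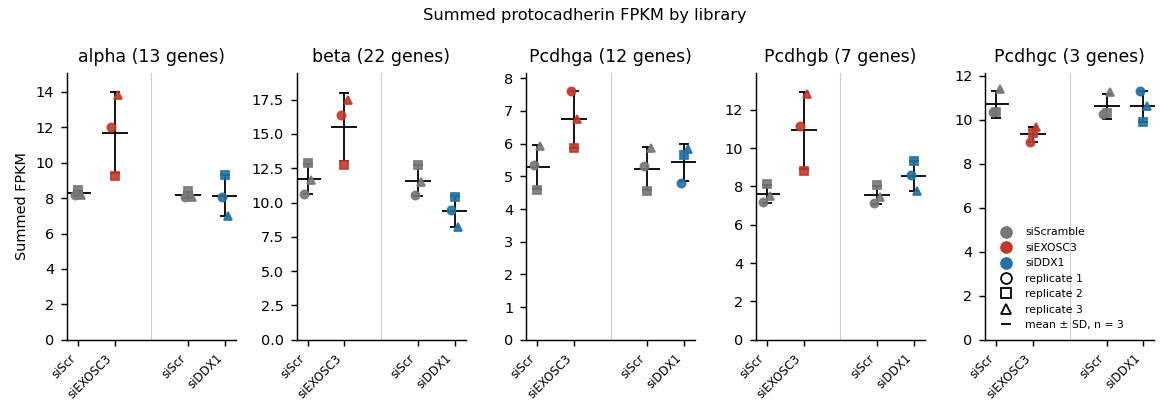
Summed FPKM of the alpha and beta arrays and of the 3 gamma subfamilies in each library, with siScramble in grey, siEXOSC3 in red and siDDX1 in blue; bars are the mean ± SD (n = 3). The siEXOSC3 libraries lie above siScramble in alpha and Pcdhgb and below it in Pcdhgc, while the siDDX1 libraries lie below siScramble in beta.

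Depletion of DDX1 left no clustered protocadherin past the threshold. Of 57 members, 11 passed the filter on FPKM, and Pcdhb11 and Pcdhb18 were the genes tested in the siEXOSC3 table alone. Pcdhb18 fell under the filter through its siDDX1 mean of 0.866 FPKM, beside 1.07 FPKM in siScramble. The set of tested members is thus not independent of the change here either. None increased and none decreased by limma, in a comparison in which 5.61% of all 11104 tested genes increased and 5.03% decreased. At an unadjusted p under 0.05 there was 1 member of 11, Pcdhgb1, on the higher side, where 15.1% of all tested genes were higher and 15% lower. The median log2 difference of the tested members was 0.01.

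Pcdhgb1 stood at 3.03, 3.87 and 3.14 FPKM in siScramble of this table and at 4.77, 4.69 and 3.78 FPKM in siDDX1. Replicate 3 of siDDX1 overlapped the controls. The log2 difference was 0.32 ± 0.115 (SE, limma adjusted p = 0.109), and without siDDX1 replicate 3 the limma adjusted p was 0.0186, in a fit in which 16.4% of all tested genes increased. Pcdha8 was at 1.39, 1.58 and 1.59 FPKM against 1.62, 2.2 and 1.63 FPKM, with a log2 difference of 0.16 ± 0.114 (SE, limma adjusted p = 0.389). Pcdha9 overlapped its controls, with a log2 difference of 0.05 ± 0.124 (SE, limma adjusted p = 0.841). Pcdhgc3 was level, at 9.89, 9.83 and 10.6 FPKM in siScramble and 10.5, 9.39 and 10.1 FPKM in siDDX1, with a log2 difference of -0.02 ± 0.0740 (SE, limma adjusted p = 0.907).

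In the beta array, 18 of 22 genes had a ratio of means under 1 in siDDX1, and with a mean of at least 0.1 FPKM the median ratio was 0.816, beside 1.01 over all genes at this level. Replicate 3 of siDDX1 was the lowest knockdown library in 11 of the 22. The summed beta FPKM was 10.5, 12.7 and 11.5 in siScramble and 9.48, 10.4 and 8.18 in siDDX1, so that every knockdown library was below every control, with a ratio of 0.806. By contrast the alpha sum was 8.19 ± 0.175 FPKM in siScramble and 8.13 ± 1.15 FPKM in siDDX1, and the gamma sum was 23.4 ± 1.02 and 24.6 ± 0.332 FPKM (SD, n = 3). The 3 beta genes that could be tested did not pass, with log2 differences of -0.27 ± 0.132 for Pcdhb22, -0.14 ± 0.116 for Pcdhb20 and 0.07 ± 0.121 for Pcdhb21 (SE, limma adjusted p = 0.202, 0.440 and 0.732).

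Among members with a mean of at least 0.1 FPKM, again 54, all siDDX1 values lay below all siScramble values in 9 (16.7%), where 16.3% of all genes did. They lay above in 3 (5.56%), where 15.9% of all genes did. The share below is that of the whole table, and 5 of the 9 were beta genes, of 20 at this level. Pcdhb8 had the lowest ratio of these beta genes, 0.397, with 0.380, 0.485 and 0.623 FPKM in siScramble and 0.138, 0.323 and 0.130 FPKM in siDDX1. Pcdhb13 was at 0.187, 0.232 and 0.253 FPKM against 0.137, 0.103 and 0.111 FPKM. Pcdhb17 was at 0.626, 0.778 and 0.495 FPKM against 0.392, 0.456 and 0.444 FPKM.

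For Pcdhb17 the ratio was 1.96 in siEXOSC3 and 0.680 in siDDX1, and for Pcdhb10 it was 2.36 and 0.616. The other beta genes of the stretches higher in siEXOSC3 differed in siDDX1. Pcdhb11 and Pcdhb12 had siDDX1 ratios of 0.862 and 0.721, and Pcdhb9, Pcdhb15 and Pcdhb16 of 1.00, 1.02 and 1.10. The siEXOSC3 and siDDX1 comparisons use the same 3 siScramble libraries, and the difference between the knockdowns was not tested. In the alpha array, Pcdha2 and Pcdha3, the isoforms near its start, were below in siDDX1. Pcdha2 was at 0.664, 0.623 and 0.646 FPKM in siScramble and 0.263, 0.433 and 0.424 FPKM in siDDX1. In siEXOSC3, Pcdha2 and Pcdha3 overlapped their controls, with ratios of 1.00 and 0.852. In the gamma array, 2 genes were below in siDDX1, Pcdhgb2 (1.55, 1.55 and 1.53 FPKM in siScramble, 1.27, 1.53 and 1.15 FPKM in siDDX1) and Pcdhga5, with ratios of 0.854 and 0.811. The 2 gamma genes above were Pcdhga8 and Pcdhgb7, the latter at 0.206, 0.214 and 0.261 FPKM in siScramble and 0.404, 0.384 and 0.506 FPKM in siDDX1. Pcdhgb7 was the 1 member that increased in siDDX1 when no filter was set (limma adjusted p = 0.0494), a fit in which 2.28% of all genes increased.

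The alternate alpha isoforms use the alpha constant exons but their own C-type promoters. Pcdhac2 was the more abundant, at 7.27, 6.71 and 7.93 FPKM in siScramble and 8.49, 10.9 and 8.36 FPKM in siEXOSC3. Its log2 difference of 0.30 ± 0.111 (SE) did not pass the threshold (limma adjusted p = 0.0696), and in siDDX1 it was 0.04 ± 0.142 (limma adjusted p = 0.875). Pcdhac2 was highest in siEXOSC3 replicate 2, the library that was lowest in most members. Pcdhac1 was not tested, at 0.493, 0.171 and 0.296 FPKM in siScramble and 0.622, 0.517 and 0.661 FPKM in siEXOSC3.

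Genes next to or inside the locus were looked at beside the members. Taf7, which encodes a subunit of the general transcription factor TFIID and lies on the opposite strand between the beta and gamma arrays (chromosome 18, 37800556 to 37803858), fell in both knockdowns. It was at 10.8, 10.2 and 9.94 FPKM in siScramble and 6.14, 7.33 and 6.55 FPKM in siEXOSC3 (log2 change -0.56 ± 0.0842, SE, limma adjusted p = 0.00315). In siDDX1 it was at 5.93, 6.40 and 7.02 FPKM (log2 change -0.59 ± 0.0821, SE, limma adjusted p = 0.00751). Zmat2, a splicing factor gene before the alpha array (36953577 to 36959314, plus strand), rose by 0.25 ± 0.0749 and by 0.28 ± 0.0563 on the log2 scale (SE, limma adjusted p = 0.0372 and 0.0211). Of 11 such genes tested in siEXOSC3, 2 increased (Zmat2 and Rell2) and 2 decreased (Taf7 and Wdr55), where 16.7 and 15.7% of all tested genes did. Rell2 passed the filter through its siEXOSC3 level, at 0.757 ± 0.113 FPKM in siScramble and 1.42 ± 0.203 FPKM in siEXOSC3 (SD, n = 3), and was not tested in siDDX1. Of 10 tested in siDDX1, Zmat2 increased and Taf7 decreased, where 5.61 and 5.03% of all tested genes did.

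Of 15 tested architecture and cohesin genes, 8 decreased in siEXOSC3 by limma, where 15.7% of all tested genes did, and the other 7 were not called, with a median log2 change of -0.22 over the 15. Ctcf, the zinc-finger protein bound at the promoters and enhancers of the locus, fell from 51.6, 49.5 and 53.5 FPKM to 32.0, 40.0 and 28.8 FPKM (log2 change -0.61 ± 0.111, SE, limma adjusted p = 0.00605). Stag1, a cohesin subunit, was at 22.2, 20.0 and 20.8 FPKM and at 13.2, 16.4 and 10.8 FPKM (log2 change -0.62 ± 0.130, SE, limma adjusted p = 0.0101). Both were highest in siEXOSC3 replicate 2 among the knockdown libraries. Nipbl, the cohesin loader, changed by -0.24 ± 0.0609, and Wapal, Pds5a, Esco2, Hdac8 and Cdca5 also decreased. The most abundant cohesin subunits, Rad21 and Smc1a, had log2 differences of -0.12 and -0.09 (limma adjusted p = 0.232 and 0.341).

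Of 13 genes for silencing of the locus, 4 decreased in siEXOSC3 by limma, where 15.7% of all tested genes did, and 9 were not called, with a median log2 change of -0.15. Smchd1 was at 39.7, 38.5 and 37.3 FPKM in siScramble and 28.3, 32.8 and 27.7 FPKM in siEXOSC3 (log2 change -0.37 ± 0.0782, SE, limma adjusted p = 0.0102). Dnmt3b, the de novo DNA methyltransferase, went from 2.77 ± 0.400 to 1.91 ± 0.198 FPKM (SD, n = 3, limma adjusted p = 0.0390). Rest, the repressor of neuronal genes, changed by -0.53 ± 0.0883 and Trim28, a corepressor of zinc-finger proteins, by -0.43 ± 0.0787 on the log2 scale (SE, limma adjusted p = 0.00434 and 0.00648). In siDDX1 the count of called genes was 0 of 15 architecture and 0 of 13 silencing genes by limma, where 5.03% of all tested genes decreased. At an unadjusted p under 0.05, 5 and 3 were lower, where 15% of all tested genes were. Ctcf had a log2 difference of -0.24 ± 0.0845 (SE, limma adjusted p = 0.0996) and Smchd1 of -0.17 ± 0.0742 (0.167). These transcript levels say nothing of protein or of binding at the locus, and their part in the protocadherin values was not tested.

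**Figure D4:**
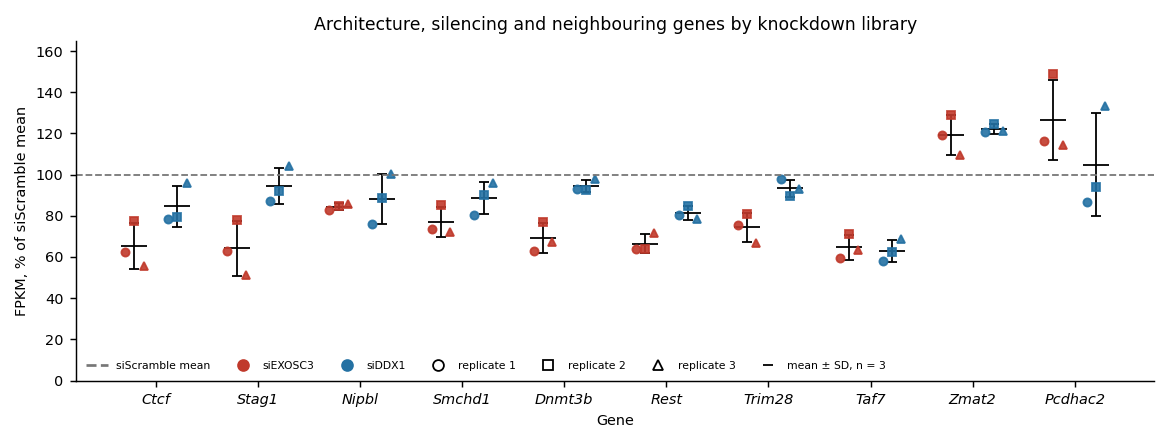
FPKM of architecture genes (Ctcf, Stag1, Nipbl), silencing genes (Smchd1, Dnmt3b, Rest, Trim28), neighbouring genes (Taf7, Zmat2) and Pcdhac2 in each knockdown library as a percentage of the siScramble mean (dashed line at 100), with siEXOSC3 in red, siDDX1 in blue and bars for the mean ± SD (n = 3). The siEXOSC3 libraries of the architecture and silencing genes lie below 100, and Taf7 is below it in both knockdowns.

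Neuronal markers moved in siEXOSC3 as well, and stand beside the protocadherin values for that reason. Of the 10 tested, 7 increased by limma, where 16.7% of all tested genes did (Mycn, Tubb3, Stmn2, Gap43, Map2, Dbh and Ache), and the summed list went from 378 to 412 FPKM in siScramble to between 651 and 672 FPKM. Gap43, a growth cone protein, rose by 1.50 ± 0.0705 on the log2 scale (SE, limma adjusted p = 6.71e-05). In siDDX1 the summed list was at 404 to 443 FPKM, with a median log2 difference of -0.03 over the 10 tested. Gap43 alone increased there, by 0.50 ± 0.0652 (SE, limma adjusted p = 0.00693), where 5.61% of all tested genes did. Markers of other cells summed to between 7.54 and 8.84 FPKM in siScramble and between 9.41 and 13.3 FPKM in siEXOSC3. Of the 2 tested, the endothelial adhesion gene Pecam1 increased, where 16.7% of all tested genes did, with a log2 change of 0.67 ± 0.134 (SE, limma adjusted p = 0.00827). Pecam1 went from 4.13 ± 0.343 to 7.28 ± 1.58 FPKM (SD, n = 3) and carried the higher sum. Mbp, the other tested marker, had a log2 difference of -0.10 ± 0.108 (SE, limma adjusted p = 0.512). In siDDX1 the markers of other cells summed to between 8.89 and 10.1 FPKM, beside 7.48 to 8.74 FPKM in its controls. Their part in the protocadherin result was not tested.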

How the data were processed

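RNA-seq libraries (rRNA-depleted, nondirectional, paired reads of 150 bases) came from 9 cultures of N2A cells. The authors aligned reads to mm9 with TopHat2 2.1.0, sorted them with SAMtools and ran Cuffdiff 2.2.1 on each knockdown against scramble, and deposited the FPKM of 24318 genes in every library as 2 tables, 1 for each knockdown. The annotation and library normalization given to Cuffdiff are not given in the sources used here. No model for counts was applied to these FPKM. The study names a target depth, but FPKM do not give the fragments mapped per library, so no counting interval is given. Relative depth is the most common ratio of low values to siScramble replicate 1, within a window of 0.01 on the natural log scale.

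Genes with a mean of at least 1 FPKM over the 6 libraries of a table were tested on log2(FPKM + 1) with limma 3.58.1 in R 4.3.3 (intensity trend, no covariates; two-sided, Benjamini-Hochberg over all tested genes, threshold 0.05). The fit was checked on simulated data. No pairing by replicate number was used in the main fit. Exon lengths and windows came from GENCODE vM1 on NCBIM37, and names and gene order from a RefSeq table of GRCm38.p6, which matched all 57 members, 56 of them by symbol. Members and lists were chosen with earlier results of these data known, and so no test was run over a list. Values are named for called members, for the 4 highest of each array among those with a mean of at least 1 FPKM (2 in the alpha array) and for called or abundant genes of the lists. Other members are named as well, the low ones picked after their values had been seen. Other pseudocounts, filters and scalings, a replicate block and leaving out each library were tried as alternatives.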

Additional observations from a re-analysis of the deposited data

How the results depend on the processing

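Pcdha9 was called in siEXOSC3 in 13 of 13 alternatives and Pcdhgb1 in 11 of 13, while Pcdhb11 was called in 8 of 12 and Pcdha8 in 6 of 13. The 4 members increased in siEXOSC3 became 10 with no filter on low FPKM, where 10.8% of all tested genes increased. With a filter and pseudocount of 0.1 the count was 8 (15.1% of all tested genes), and with quantile normalization 2 (15.1%). It was 0 with a mean FPKM of at least 5 (15.7%), where Pcdhgc3 is the 1 member left to test. Leaving out 1 library gave between 1 and 6, while the share of all tested genes that increased went from 9.10 to 21.2%. The count was 1 without siScramble replicate 1 (9.10% of all genes) or 3 (10.5%), 2 without siEXOSC3 replicate 1 (10.5%) or 3 (15.2%), and 6 without siEXOSC3 replicate 2 (21.2%). The count of 0 increased in siDDX1 became 1 with no filter, where 2.28% of all tested genes increased. Leaving out 1 library gave 0 to 1, the 1 being Pcdhgb1 without siDDX1 replicate 3, where 16.4% of all tested genes increased. No member decreased in either knockdown under any of the alternatives run with limma. The summed gamma log2 ratio in siDDX1, 0.073, was 0.10 with centring on the median and 0.044 with members of a mean FPKM of at least 1 alone, and ranged from 0.053 to 0.11 with 1 library left out. With members of a mean FPKM of at least 1 alone, the beta sums went from 0.41 to 0.25 in siEXOSC3 (0.062 without Pcdhb11, which passed the filter through its siEXOSC3 level, a value added after seeing the data) and from -0.31 to -0.20 in siDDX1, and the alpha sum in siDDX1 turned from -0.010 to 0.15, as it did to 0.017 with centring. Leaving out 1 library gave -0.12 to 0.085 for that alpha sum. The cause of the other shifts was not tested.

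Deviations of same-numbered libraries correlated at 0.035, -0.31 and -0.13 for siEXOSC3, so the numbers showed no pairing there. For siDDX1 they correlated at -0.012, 0.38 and 0.37, while replicates 2 and 3 crossed gave -0.37 and -0.38. Whether the numbers pair part of the siDDX1 libraries cannot be told from these values. With a replicate block 3 members increased in siEXOSC3, where 12.4% of all tested genes did, Pcdha8 being lost at a limma adjusted p of 0.0586. In siDDX1 0 members increased with the block, where 9.77% of all tested genes did. Levels under 1 FPKM rest on fragment numbers that FPKM do not give, and most members lie there.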

Other observations

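Outside the clustered arrays, the non-clustered protocadherins, which have no array and no common exons, were represented by 2 tested genes of 12. Pcdh15, a component of the tip links of hair cells, was at 1.04, 1.41 and 1.24 FPKM in siScramble and rose to 2.28, 2.36 and 2.66 FPKM in siEXOSC3, with all knockdown libraries higher (log2 change 0.62 ± 0.111, SE, limma adjusted p = 0.00568). Pcdh1, the most abundant of the protocadherins listed, was at 50.0, 47.3 and 55.7 FPKM against 54.1, 63.6 and 60.5 FPKM and did not pass the threshold (limma adjusted p = 0.0863). Of the 12, 6 were listed at 0 in all libraries of both tables. In siDDX1 the log2 differences were 0.06 for Pcdh15 and 0.13 for Pcdh1 (limma adjusted p = 0.741 and 0.327).

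Of 7 tested genes from the rest of the cadherin superfamily, 2 increased in siEXOSC3, where 16.7% of all tested genes did. Clstn3, a calsyntenin, rose from 2.38, 2.39 and 2.28 FPKM to 3.98, 3.74 and 4.13 FPKM (limma adjusted p = 0.00355) and Clstn1 by 0.23 ± 0.0721 on the log2 scale (SE, limma adjusted p = 0.0401). None of the 7 was called in siDDX1 by limma, where 5.61% of all tested genes increased and 5.03% decreased, and at an unadjusted p under 0.05 there were also 0. Among 18 tested genes for partners and effectors of clustered protocadherins, Cyfip2, a subunit of the WAVE complex that binds their cytoplasmic tails, rose from 3.86, 4.29 and 3.71 FPKM to 8.54, 7.44 and 10.2 FPKM in siEXOSC3 (log2 change 0.97 ± 0.113, SE, limma adjusted p = 0.00137). In siDDX1 it rose to 6.05, 5.69 and 5.02 FPKM (log2 change 0.42 ± 0.0945, SE, limma adjusted p = 0.0294). The receptor tyrosine kinase Ret increased in both, by 0.77 and 0.34 on the log2 scale (limma adjusted p = 0.000988 and 0.0135). Psen2, of the gamma-secretase that cleaves protocadherins, increased in siEXOSC3, where Fyn and Brk1 decreased, so that 3 of 18 rose and 2 fell, where 16.7 and 15.7% of all tested genes did. In siDDX1, Fyn increased and Adam10, the protease that sheds protocadherins, decreased, making 3 of 18 up and 1 down, where 5.61 and 5.03% of all tested genes were.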
